A study of Mus with 3 samples.

Results

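Synaptic vesicle release and recycling genes encode the machinery with which a nerve terminal stores transmitter, fuses vesicles with its membrane on calcium entry and takes the membrane back. The 39 genes described here were chosen by gene name from textbook parts of that machinery, and they matched 63 probes on a mouse whole-genome array. A gene was represented by its brightest probe among those whose signal to noise score reached 2.6 on each of the 3 arrays. That left 38 of the 39 genes, read against 13202 genes of 23756 named on the array.

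In a nerve terminal, neurotransmitter is loaded into vesicles by transporters, and vesicles are tethered by synapsins and docked at the active zone by Rab3 GTPases and scaffold proteins. Calcium bound to a synaptotagmin then triggers fusion by the SNARE proteins, with complexins as regulators, and endocytic proteins such as dynamin retrieve the membrane. The hippocampus, a brain region needed for memory, holds dense glutamatergic and GABAergic terminals that use these proteins.

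The hippocampus came from male Slc:ddY mice, an outbred stock, aged 6 weeks, in 3 groups of 10 animals. Mice of the shochu oil group (ASO) took 2000 mg/kg/day of shochu oil by mouth for 15 days and were injected with 10 nmol of Aβ25-35, a toxic fragment of the amyloid β peptide, into the cerebral ventricles on day 8. Mice of the peptide control group (ACO) had the same injection with oral distilled water, and mice of the normal control group (NCO) had oral distilled water and 5 µL of distilled water in place of the peptide. The labels do not state the route of that 5 µL, and in 1 place they give the injected groups a name that no sample carries, so ASO was taken as injected from the design text. All mice were tested in a Y-maze on day 16 before the tissue was collected. RNA was pooled from 2 mice per set, 5 sets per group, so that each group was 1 pool on 1 array. No group had a replicate, no test between groups could be made, and the number of arrays limits the precision of each value.

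Signals below are background-corrected and scaled between arrays, in arbitrary units, and a difference is the log2 ratio of 2 arrays after 50 was added to each signal. A gene was counted as higher or lower at a ratio of at least 1.2-fold, a difference of 0.263 in log2. A signal depends on the probe as well as on the transcript, so signals of different genes were not compared. Each chosen probe had 1 spot per array. The error of a single spot was read from 250 other probes printed at 10 spots each, where the median SD of a difference was 0.085 when ACO was set against NCO, 0.094 when ASO was set against ACO and 0.098 when ASO was set against NCO. In the same order it was 0.070, 0.083 and 0.088 among the 96 such probes with a mean signal of at least 1000, a range that held 29 of the 38 measured genes. These SDs cover spot error and not the spread between mice.

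The arrays had 53.7% (ASO), 51.7% (ACO) and 50.9% (NCO) of their 39429 gene probes above background. None of the chosen probes had saturated pixels on any array, and the spots around them differed between arrays by -0.15 to 0.17. Over 5 measured E1A spike-in probes the median difference was 0.48 between ASO and ACO, 0.34 between ASO and NCO and -0.14 between ACO and NCO. In the same order the 5 probes ranged from 0.41 to 0.82, from 0.26 to 0.68 and from -0.16 to -0.12. The labels do not state the amount of spike-in RNA per reaction, and its part in the results was not tested.

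**Figure D1:**
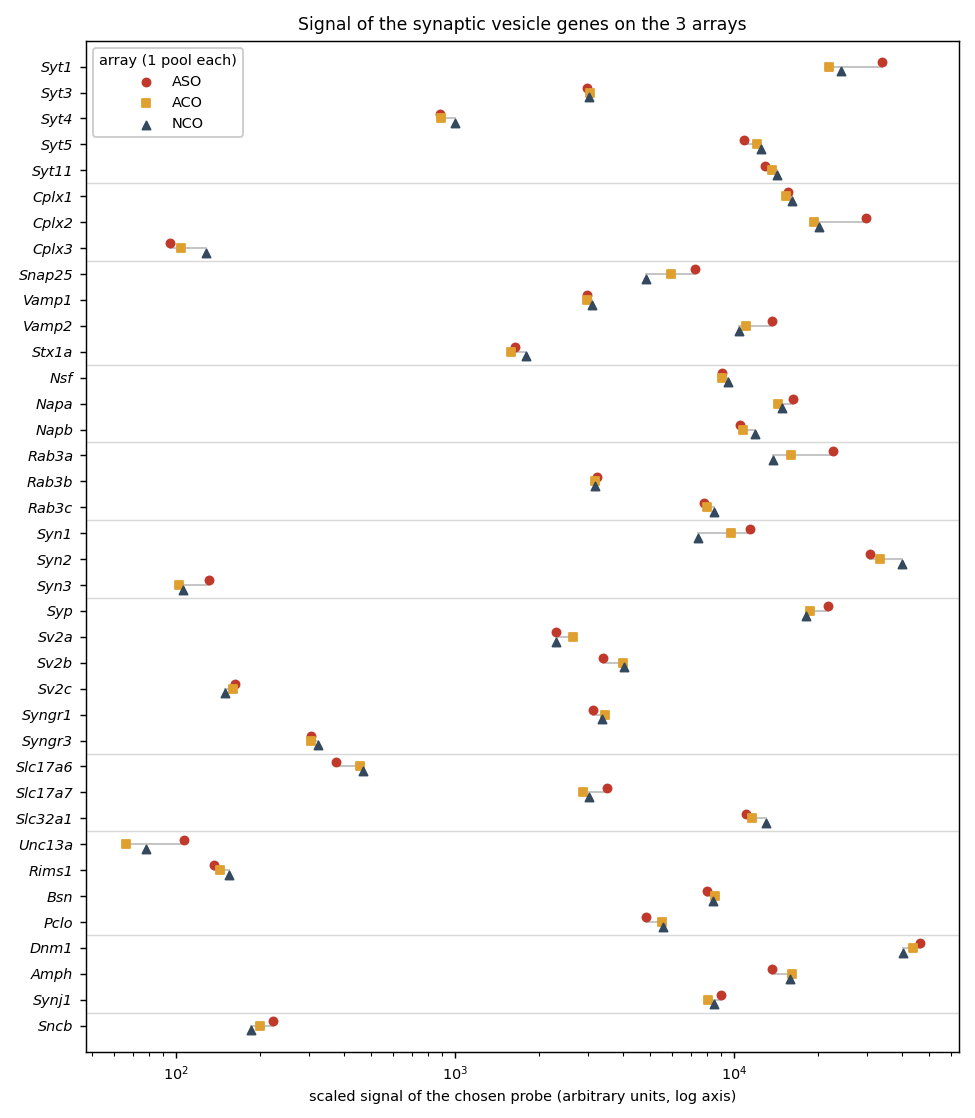
Scaled signal (log axis, arbitrary units) of the chosen probe of the 38 measured genes on the ASO, ACO and NCO arrays, grouped by role with grey rules between roles. Each point is 1 array, and Rab3a, Syt1 and Cplx2 have their ASO point well to the right of the others while most genes have their 3 points close together.

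Between ASO and ACO, which differ in the oil, a small group of release genes was at least 1.2-fold higher on the ASO array. Syt1, Cplx2, Rab3a, Unc13a, Vamp2, Snap25 and Slc17a7 passed 1.2-fold, which is 7 of 38 (18.4%), against 10.1% of all genes and 9.09% of genes with a mean signal of at least 1000. None of the 38 was at least 1.2-fold lower, against 9.45% of all genes, but Slc17a6 at -0.2602 lay just inside that size. The lower genes numbered 1 or 2 in 5 of 12 other settings, where 7.58% to 11.1% of all genes were lower. The median over the 38 genes was 0.0016, with 20 above 0 (52.6%) and 18 below. Over all genes the median was -0.016, with 46.6% above 0. Over genes with a mean signal of at least 1000 it was -0.037, with 42.3% above 0. The median thus lay near 0, and the higher genes were Snap25 and Vamp2 of the fusion SNAREs and 1 gene each of the synaptotagmins, complexins, Rab3 GTPases, transporters and active zone. At 1.5-fold, 2 of the 38 were higher, Syt1 and Cplx2, against 1.67% of all genes.

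Syt1, the calcium sensor of fast release, had a signal of 33851 on ASO, 21899 on ACO and 24106 on NCO. Its difference was 0.63 for ASO against ACO and 0.49 against NCO, and ACO against NCO was at -0.14. ASO was thus the high array for Syt1, and the gap to ACO was several times the spot SD. That gap also lay within the range of the E1A spike-in probes, 0.41 to 0.82 for ASO against ACO. The array carried 1 probe for this gene, so no other probe could be set beside it.

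Cplx2, a complexin that clamps and promotes fusion of vesicles, had a signal of 29634 on ASO, 19324 on ACO and 20141 on NCO. The difference was 0.62 for ASO against ACO and 0.56 against NCO. ACO and NCO lay close together on this probe, with a difference of -0.06. Cplx2 had 4 further measured probes, which did not all follow the chosen one.

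Rab3a, the main Rab3 GTPase of brain synapses, had a signal of 22626 on ASO, 15937 on ACO and 13807 on NCO. It differed by 0.50 for ASO against ACO, by 0.71 for ASO against NCO and by 0.21 for ACO against NCO. The 3 arrays were ordered with ASO highest and NCO lowest.

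Unc13a, the priming factor Munc13-1 of the active zone, had a dim probe, at 107 on ASO, 65.9 on ACO and 77.8 on NCO. Its difference of 0.44 for ASO against ACO is shrunk by the constant of 50 and was 0.21 with a constant of 200. The value for ASO against NCO was 0.30, and it was under 1.2-fold in 4 of 11 other settings.

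Among the SNARE proteins that fuse the membranes, Vamp2, on the vesicle, had 13631 on ASO, 11037 on ACO and 10390 on NCO. Its difference was 0.30 for ASO against ACO and 0.39 against NCO. After correction by the surrounding spots both values fell short of 1.2-fold, at 0.20 and 0.25. With quantile normalization the value for ASO against ACO also fell short, at 0.225. Snap25, on the plasma membrane, had 7216 on ASO, 5911 on ACO and 4811 on NCO. Its difference was 0.29 for ASO against ACO, 0.58 for ASO against NCO and 0.29 for ACO against NCO, so the array order was that of Rab3a. The value for ASO against ACO was 0.21 after correction by the surrounding spots and 0.52 with spot means in place of medians. Of the other SNARE genes, Vamp1 was at -0.0041 and Stx1a, the plasma membrane partner syntaxin, at 0.04 for ASO against ACO.

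Slc17a7 encodes VGLUT1, the vesicular glutamate transporter of cortical and hippocampal neurons. It had a signal of 3496 on ASO, 2862 on ACO and 3026 on NCO, with a difference of 0.28 for ASO against ACO and 0.21 against NCO. It fell short of 1.2-fold for ASO against ACO with spot means, at 0.24, and after correction by the surrounding spots, at 0.23. The other transporters lay on the opposite side. Slc17a6, which encodes VGLUT2 of mainly subcortical neurons, had 373 on ASO, 456 on ACO and 469 on NCO, and was at -0.26 for ASO against ACO and -0.30 against NCO. Its value for ASO against ACO passed 1.2-fold in 3 of 12 other settings, at -0.27 with plain background subtraction, -0.28 with a constant of 16 and -0.36 after correction by the surrounding spots. Slc32a1, the transporter of GABA and glycine, was at -0.08 and -0.24.

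**Figure D2:**
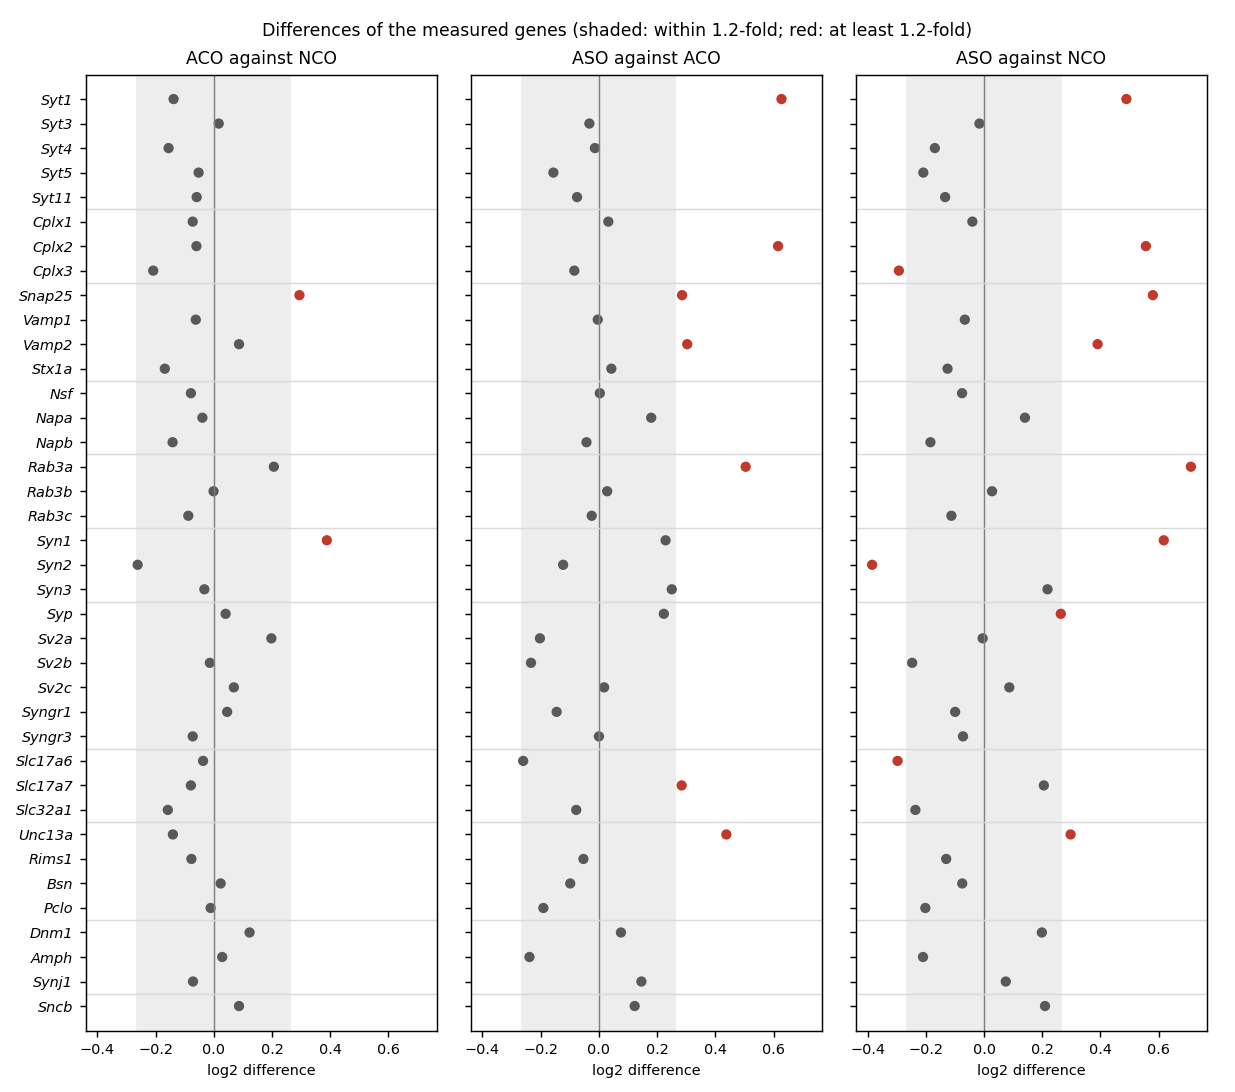
Log2 differences of the 38 measured genes (1 point per gene, 1 array per group) in the 3 comparisons, grouped by role. Points in red are at least 1.2-fold apart and lie outside the shaded band, with 2 genes higher in ACO against NCO, 7 in ASO against ACO and 8 in ASO against NCO.

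Each role with over 1 measured gene held values on both sides of 0 for ASO against ACO. Among the synaptotagmins, Syt1 stood alone on the high side of ASO against ACO, and Syt3 at -0.03, Syt4 at -0.01, Syt5 at -0.16 and Syt11 at -0.08 did not reach 1.2-fold. The complexin genes Cplx1 and Cplx3 were at 0.03 and -0.08, beside 0.62 for Cplx2, and the Rab3 genes Rab3b and Rab3c at 0.03 and -0.02, beside 0.50 for Rab3a. For ACO against NCO the 3 complexins, the 3 SNARE disassembly genes and the 3 transporters were all below 0 on their chosen probes, none of them by 1.2-fold. The difference of 1 family member from the others was not tested.

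Synapsins tether vesicles to each other and to the cytoskeleton. Syn1 had a signal of 11406 on ASO, 9724 on ACO and 7418 on NCO, and on the chosen probes it had the largest difference of the 38 genes for ACO against NCO, at 0.39, while other probes of Cplx2 and Rab3c reached -1.29 and -0.51. Its value for ASO against ACO was 0.23, short of 1.2-fold, and that for ASO against NCO was 0.62. Syn2 took the other direction, with 30560 on ASO, 33283 on ACO and 39909 on NCO, and differences of -0.12 for ASO against ACO, -0.26 for ACO against NCO and -0.38 for ASO against NCO. The value of -0.26 lay just inside 1.2-fold. Syn3, with dim signals of 131, 102 and 105 on ASO, ACO and NCO, was at 0.25 for ASO against ACO and 0.22 against NCO.

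The vesicle membrane proteins lay on both sides of 0 for ASO against ACO, 3 above and 3 below, with a median of -0.073 over 6 genes and none past 1.2-fold. Syp, which encodes synaptophysin, had 21756 on ASO, 18632 on ACO and 18113 on NCO. It was at 0.22 for ASO against ACO and at 0.264 against NCO, just past 1.2-fold, and 4 of 12 other settings put that last value below this size. The SV2 glycoprotein genes Sv2a and Sv2b were at -0.20 and -0.23 for ASO against ACO and Sv2c at 0.02, and the synaptogyrin gene Syngr1 at -0.15. Syngr3 had 304 on both ASO and ACO and 322 on NCO.

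On the chosen probes, none of the 3 endocytosis genes, the 3 SNARE disassembly genes and Sncb was past 1.2-fold in any of the 3 comparisons. Dnm1, the neuronal dynamin that pinches off endocytic vesicles, had 46189 on ASO, 43825 on ACO and 40241 on NCO, with differences of 0.08 for ASO against ACO and 0.20 against NCO. Amph, an amphiphysin that recruits dynamin, was at -0.24 for ASO against ACO and -0.21 against NCO, and Synj1, a lipid phosphatase of vesicle uncoating, at 0.15 and 0.07. The chosen Synj1 probe lists no RefSeq transcript, while the other Synj1 probe lists 2. The genes that take SNARE complexes apart after fusion were at 0.0031 (Nsf), 0.18 (Napa) and -0.04 (Napb) for ASO against ACO. The other probe of Napa was past 1.2-fold, at 0.29 for ASO against ACO and -0.32 for ACO against NCO. Sncb, which encodes β-synuclein, was at 0.12 between ASO and ACO and at 0.21 between ASO and NCO.

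Active zone scaffolds were on the low side apart from Unc13a. For ASO against ACO, Pclo (piccolo) was at -0.19, Bsn (bassoon) at -0.10 and Rims1, a Rab3 effector, at -0.05, and for ASO against NCO they were at -0.20, -0.07 and -0.13. None of these reached 1.2-fold on the chosen probe.

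Between ACO and NCO, which differ in the peptide, few of the 38 genes differed by 1.2-fold on the chosen probes. Only Syn1 and Snap25 were at least 1.2-fold higher on ACO, which is 2 of 38 (5.26%), against 2.78% of all genes, and none was at least 1.2-fold lower, against 2.7% of all genes. The median over the 38 was -0.046, with 25 genes below 0 and 13 above (34.2%). Over all genes the median was 0.0051, with 51.9% above 0. Over genes with a mean signal of at least 1000 it was -0.0025, with 48.9% above 0. Of the 38 differences, 22 were smaller than the SD of a single spot, beside quartiles of -0.075 and 0.080 over all genes. Snap25 was at 0.22, short of 1.2-fold, with spot means, where the count was 1, against 1.95% of all genes. With quantile normalization the count was 4, against 2.69% of all genes, and held Rab3a at 0.26. The lower genes numbered 1 with plain background subtraction (2.95% of all genes) or median scaling (2.76%) and 2 with the mean over probes (2.41%). Probes other than the chosen one were at -1.29 and -0.37 for Cplx2, -0.51 for Rab3c and -0.32 for Napa.

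Between ASO and NCO, which differ in both the peptide and the oil, 8 of 38 genes were at least 1.2-fold higher (21.1%), against 10.3% of all genes, and 3 of 38 (7.89%) were at least 1.2-fold lower, against 8.39%. The higher genes were Rab3a, Syn1, Snap25, Cplx2, Syt1, Vamp2, Unc13a and Syp. The lower genes were Syn2, Slc17a6 and Cplx3, a complexin best known from ribbon synapses of the retina. Cplx3 had a dim signal of 95.1 on ASO, 104 on ACO and 128 on NCO and was at -0.29, or -0.15 with a constant of 200. The median over the 38 was -0.053, beside -0.016 over all genes. Over genes with a mean signal of at least 1000 it was -0.047, near that of the 38. At 1.5-fold, 2 of the 38 were higher, Rab3a and Syn1, against 1.67% of all genes, and Snap25 lay just under that size. Quantile normalization split the 38 into 6 higher and 5 lower for ASO against NCO, against 8.93% and 9.6% of all genes. For ASO against ACO it gave 6 higher and 2 lower, against 8.78% and 10.4% of all genes. The 3 comparisons share arrays in pairs, so the values of a gene in them are not independent of each other.

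Syt7, a slow calcium sensor, was the 1 gene with no measured probe. Its brighter probe gave signals of 238, 246 and 259 on ASO, ACO and NCO, but its signal to noise score was 8.41, 5.56 and 2.11, so that on NCO it missed the limit of 2.6. The chosen probes nearest above that limit were those of Sncb, with a lowest score of 3.28, and Unc13a, with 3.53.

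Different probes of a gene often disagreed, which bears on every value that rests on 1 probe. Of the 38 genes, 26 had 1 measured probe and 12 had more. For ASO against ACO the second-brightest probe lay on the same side of 0 as the chosen one in 7 of 12 genes, and all probes of a gene did so in 5 of 12. The median gap between those 2 probes was 0.20, larger than the spot SD. For ASO against NCO the second-brightest probe lay on the same side in 5 of 12 genes, and all probes did so in 4 of 12. For ACO against NCO these counts were 7 and 6 of 12. Syt1, Rab3a, Syn1, Snap25, Vamp2, Slc17a7, Unc13a and Syp were all among the genes with 1 probe.

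**Figure D3:**
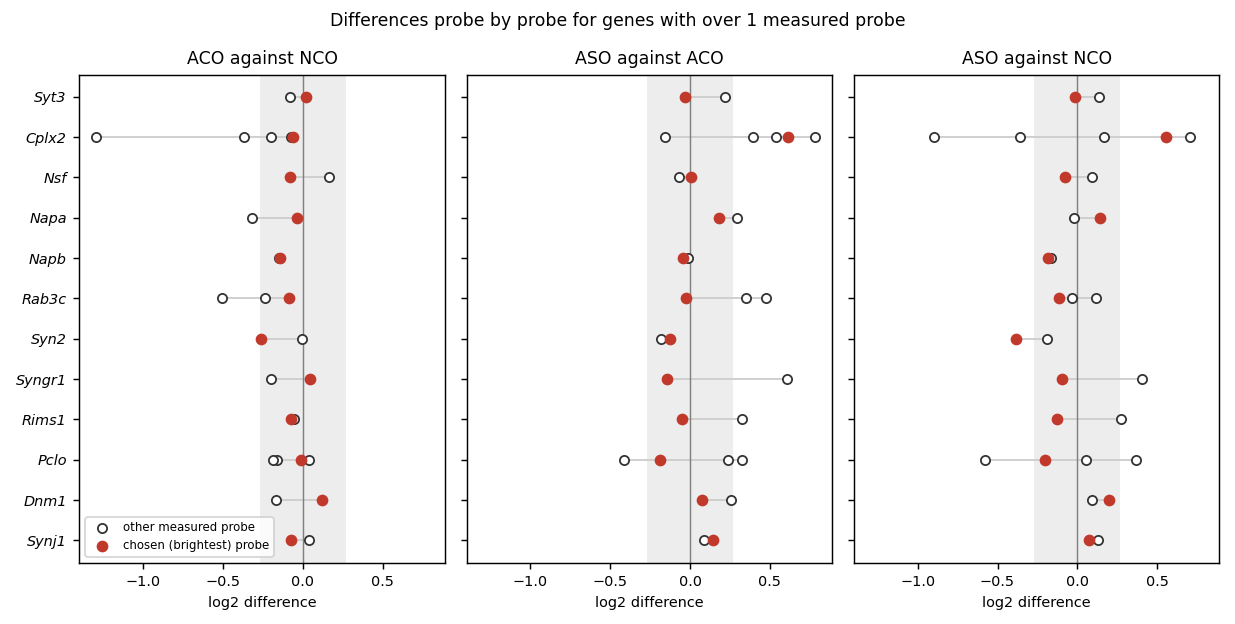
Log2 differences of each measured probe for the 12 genes with over 1 measured probe, with the chosen probe filled in red, other probes open and the band within 1.2-fold shaded. Cplx2 spans the widest range, from -1.29 in ACO against NCO on 1 probe to 0.79 in ASO against ACO on another.

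Cplx2 was the widest case, with 5 measured probes. For ASO against ACO the chosen probe A_51_P485161 was at 0.62, A_55_P2040775 at 0.79, A_55_P1962603 at 0.53, A_55_P2067960 at 0.39 and A_55_P2148402 at -0.16, so that 4 of the 5 were at least 1.2-fold higher. The probe A_55_P2040775 had signals of 4620 on ASO, 2660 on ACO and 2809 on NCO. Against NCO the probes split. For ACO against NCO the chosen probe was at -0.06, but A_55_P2067960 was at -1.29, with signals of 10033 on ASO, 7620 on ACO and 18765 on NCO. On that probe NCO was the high array, and ASO against NCO was at -0.90, beside 0.56 on the chosen probe. The mean over the 5 probes was 0.03 for ASO against NCO and -0.40 for ACO against NCO. The probe A_55_P1962603 lists transcripts of 3 genes, Cplx2, Rab3c and Emp2, and so cannot be read as Cplx2 alone. A_55_P2040775 lists no RefSeq transcript. The remaining probes list a Cplx2 transcript alone, and were at 0.62, 0.39 and -0.16 for ASO against ACO.

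The authors' deposited table holds 475 probes and lists 2 of the 63 probes, neither of them a chosen one. The Cplx2 probe in the authors' deposited table is A_55_P2067960, at an intensity of 9037 on ASO, 7345 on ACO and 17631 on NCO, a ratio of 0.417 for ACO over NCO. The Rab3c probe in the authors' deposited table is A_55_P2095854, at 3770 on ASO, 2898 on ACO and 4028 on NCO, a ratio of 1.30 for ASO over ACO. For both genes the authors' deposited table thus shows ACO as the low array, on probes other than the brightest.

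Rab3c likewise differed by probe. Its chosen probe was at -0.02 for ASO against ACO, while A_55_P2182222 and A_55_P2095854 were at 0.35 and 0.47. For ACO against NCO the 3 probes were at -0.09, -0.24 and -0.51. All 3 list the same RefSeq transcript, so the file does not separate them by isoform.

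For Syngr1, Syn2, Pclo and Rims1 the probes list different RefSeq transcripts of the gene. Syngr1 was at -0.15 for ASO against ACO on the chosen probe, which lists NM_207708, and at 0.61 on the probe that lists NM_009303, with signals of 487 on ASO, 303 on ACO and 355 on NCO. Syn2 was at -0.12 on the probe for NM_013681 and at -0.18 on the probe for NM_001111015, and for ASO against NCO these were at -0.38 and -0.19, the same side for both. Pclo was at -0.19 on the probe for NM_001110796 and at -0.41 on the brighter probe for NM_011995, with 803 on ASO, 1087 on ACO and 1224 on NCO. Its dim probe A_52_P336904, which also lists NM_011995 alone, was at 0.33, and A_55_P2058143, which lists both transcripts, at 0.24. The Pclo probes for NM_011995 thus lay on both sides of 0, and the listed transcripts do not separate the values. The dim probe of Rims1, A_51_P366770, was at 0.32 with signals of 95.1, 65.9 and 70.3 on ASO, ACO and NCO. Both Rims1 probes list 3 transcripts in common, while NM_053270 is listed by the chosen probe alone and NM_001012625 by the dim one alone.

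The remaining genes with over 1 probe were Napa, Dnm1, Syt3, Nsf, Napb and Synj1. For ASO against ACO the other probe of Napa was at 0.29, that of Dnm1 at 0.26 and that of Syt3 at 0.22, all above the chosen probe. The other probes of Nsf, Napb and Synj1 were at -0.07, -0.01 and 0.09. Napb was the gene whose 2 probes lay closest together in each comparison, at -0.14 and -0.15 for ACO against NCO.

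Other genes of release and recycling passed 1.2-fold at shares below or near those of all genes. Of 68 listed genes 58 were measured, with a median of -0.00047 for ASO against ACO, 4 at least 1.2-fold higher (6.9%, against 10.1% of all genes) and 6 at least 1.2-fold lower (10.3%, against 9.45%). The higher ones were Syt10, a sensor of growth factor release, at 0.60, Atp6v1b2, a subunit of the vesicular proton pump, at 0.48, the endocytic adaptor gene Eps15 at 0.34 and Dnm2 at 0.28. The lower ones were Vamp4 at -0.43, the active zone scaffold gene Erc2 at -0.41, the secretory GTPase gene Rab27b at -0.39, Atp6v1e1 at -0.28, Syt16 at -0.27 and Doc2b, a calcium sensor of spontaneous release, at -0.27. For ASO against NCO 4 were higher (6.9%, against 10.3% of all genes) and 5 lower (8.62%, against 8.39%), with Syt10 at 0.81. For ACO against NCO 1 of 58 was higher (1.72%, against 2.78%), Snap91, the clathrin adaptor AP180, at 0.32, and none was lower, against 2.7%.

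Marker lists describe the tissue in each pool, and fewer cells of a type and less RNA per cell cannot be told apart. General neuron markers had a summed signal of 123695 on ASO, 106892 on ACO and 111355 on NCO over 10 of 11 genes, as no probe was named Map2. For ASO against ACO 7 of these 10 were above 0, with a median of 0.12, Thy1 at 0.53 and Stmn2 at 0.34, while Rbfox3, which encodes NeuN, was at -0.10. The 38 vesicle genes had a summed signal of 371714 on ASO, 338630 on ACO and 343873 on NCO. Without Syt1, Cplx2 and Rab3a the sum over the other 35 was 285603 on ASO, 281469 on ACO and 285819 on NCO. Most of the gap in the sum between ASO and ACO thus lay in those genes. They had the largest differences for ASO against ACO and were picked with their values in view, so a smaller gap had to follow. Granule cell markers summed to 4689 on ASO, 5846 on ACO and 5218 on NCO, and all 6 measured of 8 were below 0 for ASO against ACO, among them Prox1, which defines granule cells. Pyramidal cell markers summed to 25546 on ASO, 24150 on ACO and 25759 on NCO over 6 of 8 genes, and 4 of these 6 were above 0 for ASO against ACO, with a median of 0.14 and Wfs1 at 0.35. Interneuron markers summed to 80324 on ASO, 76921 on ACO and 80298 on NCO over 8 of 8 genes, with a median of 0.0066 for ASO against ACO, Gad2 at 0.38 and Vip at -0.28.

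Markers of other cells also differed between the pools. Microglial markers summed to 27695 on ASO, 23128 on ACO and 22768 on NCO over 7 of 7 genes. For ASO against ACO 6 of these 7 were above 0, with a median of 0.27 and C1qa at 1.02, while P2ry12 was at -0.40. Astrocyte markers summed to 23537, 19322 and 19572 over 6 of 6 genes in the same order. All 6 were above 0 for ASO against ACO, with a median of 0.18, but unevenly, from Aldh1l1 at 0.05 to Gfap at 0.84. Oligodendrocyte markers summed to 77936 on ASO, 66490 on ACO and 75425 on NCO over 6 of 6 genes. Of these 6, 5 were above 0 for ASO against ACO, with a median of 0.15 and Mag at 0.46, and all were below 0 for ACO against NCO. Choroid plexus markers were detected on all 3 arrays, at 18735 on ASO, 18396 on ACO and 22733 on NCO over 7 of 7 genes. Of these, 6 were at least 1.2-fold higher for ACO against NCO and Ttr, the brightest, was lower at -0.46. Thalamus and habenula markers, a region whose neurons use Slc17a6, summed to 3232, 3596 and 3056 on ASO, ACO and NCO over 6 of 8 genes, with Calb2 and Chrnb4 not measured. For ASO against ACO 2 of these 6 were above 0 and 4 below, with a median of -0.0038. For ASO against NCO 4 were above 0 and 2 below, with a median of 0.14. Of 7 striatal markers, 6 had a probe under their name and 3 were measured. The defining receptor genes Drd1, Drd2 and Adora2a had no measured probe, which does not show that their RNA was absent. The part of any of these markers in the vesicle gene values was not tested.

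**Figure D4:**
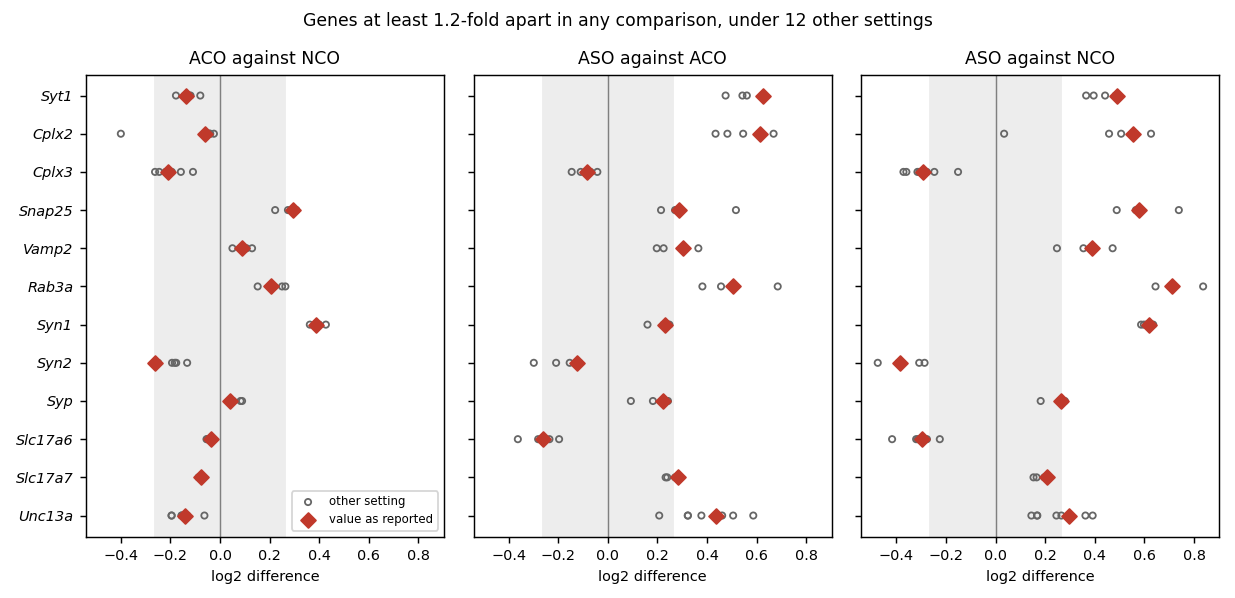
Log2 differences of the 12 genes at least 1.2-fold apart in any comparison, as reported (red diamonds) and under 12 other processing settings (open circles), with the band within 1.2-fold shaded. Syt1, Cplx2 and Rab3a stay outside the band in ASO against ACO under all 12, while Snap25, Vamp2, Slc17a7 and Unc13a enter it under at least 1.

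Across 12 other processing settings, Syt1 ranged from 0.47 to 0.63, Cplx2 from 0.43 to 0.67 and Rab3a from 0.38 to 0.69 for ASO against ACO, and each stayed at least 1.2-fold higher in all 12. Syn1 ranged from 0.36 to 0.43 for ACO against NCO and from 0.59 to 0.64 for ASO against NCO, also past 1.2-fold in all 12. The 3 settings that filter probes or spots left the values of these genes as they were. The mean over probes could not move Syt1, Rab3a and Syn1 either, as each had 1 measured probe. These ranges cover processing of the same 3 arrays and not repeated pools.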

How the data were processed

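Hippocampal RNA of 3 groups was measured on 3 one-colour arrays, which lay on 1 slide at positions 4 (ASO), 2 (ACO) and 1 (NCO). The foreground and background intensities were obtained by the authors at 532 nm and quantified with GenePix Pro 6.1.0.4 without normalization, per the file headers. The deposited spot marks, each spot's score of signal to noise and its percent of pixels at saturation come from the same software, per the file headers. The submitters' processing notes name Agilent Feature Extraction. The genome build of the probe annotation is not given in the sources used here, so no coordinates are given, and probe sequences were not used here. The authors' deposited table holds intensities of 475 probes, and the 448 of them printed at 1 spot followed a straight line of that array's foreground median within 0.05, with slopes of 0.893 (ASO), 0.917 (ACO) and 1 (NCO) and column medians of 113, 97.4 and 117. Its scale is linear, its direction that of signal, it is not centred, and the reason for the slopes stays unknown.

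All 45220 spots went through limma 3.58.1 (R 4.3.3), whose normexp correction used the saddle fit with an offset of 0, and the 43020 gene spots were kept. Arrays were scaled to a common 75th percentile by factors of 0.991 (ASO), 0.949 (ACO) and 1.06 (NCO), 50 was added, and log2 was taken in Python 3.11.15 with numpy 2.4.6 and pandas 2.3.3. Spots of a probe were averaged. A probe was measured where its signal to noise score reached 2.6 on all 3 arrays, below 50% saturated pixels and without a bad-spot mark. Gene names are those of the files, and RefSeq names (assembly GRCm38.p6) served only to name the transcripts a probe lists. With 1 array per group there was no test. Signals on all 3 arrays are given for the genes at least 1.2-fold apart in any comparison and for the 5 brightest and 3 dimmest measured genes, while some further probes and list genes were picked with their values in view. The gene and marker lists were chosen with earlier results of these data known. The steps were tested on simulated arrays with known changes. Values were recomputed under 12 other settings, and under 1 more chosen after seeing the data.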

Additional observations from a re-analysis of the deposited data

How the results depend on the processing

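No paired analysis was possible because each group had 1 array. Under the 12 other settings the medians over the 38 genes ranged over -0.061 to -0.027 for ACO against NCO, -0.028 to 0.038 for ASO against ACO and -0.073 to 0.018 for ASO against NCO. Counts at 1.2-fold moved by over 1.5 times in some settings, and the cause was not tested. For ACO against NCO the higher genes numbered 1 with spot means (1.95% of all genes) and 4 with quantile normalization (2.69%). There the lower genes numbered 1 with plain background subtraction (2.95% of all genes) or median scaling (2.76%), and 2 with the mean over probes (2.41%). For ASO against ACO the lower genes numbered 1 with plain background subtraction (10.2% of all genes) or spot means (7.58%). They also numbered 1 with a constant of 16 (11.1%) or correction by surrounding spots (8.65%), and 2 with quantile normalization (10.4%). For ASO against NCO the lower genes numbered 5 with quantile normalization (9.6% of all genes) and 1 with a constant of 200 (4.96%).

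The second-brightest probe in place of the brightest was an alternative chosen after seeing the data. It gave 2 lower genes for ACO against NCO, against 2.89% of all genes. For ASO against ACO it gave 11 higher and 1 lower, against 10.9% and 8.57% of all genes. It put Cplx2 at -0.90 for ASO against NCO. The 12 named genes had 429 values under the 12 other settings, of which 135 were identical to the reported value, all of them under the 3 filter settings or the mean over probes. Of the other 294, 264 moved by less than the spot SD and 30 by more, and 0 changed side while past 1.2-fold. Dim probes such as those of Unc13a and Cplx3 depend most on the constant added.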
